A study of Homo sapiens with 6 samples.

Results

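Some stretches of the genome hold almost no accessible sites in cardiomyocytes, and the values below describe what was called in such stretches when ZNF436 was knocked down. Chromosomes 1 to 22 were divided into fixed bins of 1 Mb (hg19), and the peaks of 6 ATAC-seq peak lists were counted in each bin by their midpoint. A bin was kept when the 3 control lists together held 1 to 9 peaks. This gave 257 peak-poor bins of the 2732 autosomal bins with a peak in any list. A further 12 bins held 0 control peaks and 2463 held over 9. The control counts chose the bins, so the control levels, and every difference from them in these bins, are given as a description and not as a test.

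ATAC-seq, in which the Tn5 transposase inserts adapters into open DNA, was done on ventricular-like cardiomyocytes at day 15 of differentiation from H9, a line of human embryonic stem cells. Each condition, control or ZNF436 knockdown, had 3 libraries, which the labels describe as separate differentiations. All 6 came from H9 cells taken through the same cardiomyocyte differentiation, and the labels give neither the knockdown reagent nor what the control cells received. Each library was deposited as 1 list of peaks with positions and a score.

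Megabases with few accessible sites are mostly gene-poor, lie in compact and late-replicating chromatin, and often hold single very long genes, many of them for adhesion and signalling between neurons. Such chromatin is usually closed in cardiomyocytes. ZNF436 belongs to the KRAB zinc finger proteins, many of which bind transposon-derived sequence and recruit TRIM28 and the histone methyltransferase SETDB1, which silence the surrounding chromatin. The series compares accessibility between the conditions in the setting of transposon-derived regulatory elements.

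Control replicates 2 and 3 held 53662 and 68342 peaks and control replicate 1, the shortest list, fewer. Knockdown replicates 1, 2 and 3 held 115864, 102454 and 87871 peaks, so the ratio of the group means was 1.77 ± 0.379 (n = 3 per group). Sequencing depth is not given by the lists, and depth, list length and knockdown cannot be told apart. Values are therefore also given with each list reduced, by score, to as many of its strongest peaks as control replicate 1 holds, here called lists of equal length. In a population of cells, a site open in more cells and a site more open in each cell cannot be told apart either. The ZNF436 locus and cardiomyocyte marker loci were not analysed here, so neither the knockdown nor the cell type was checked.

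Peak-poor bins held several times more called sites in knockdown than in control. The 257 bins held 430, 418 and 659 peaks in control replicates 1, 2 and 3 and 2248, 1783 and 1486 in knockdown replicates 1, 2 and 3. The lowest knockdown list was above the highest control list, and the order within each group followed list length except between control replicates 1 and 2. Per bin, control lists averaged 1.95 ± 0.528 peaks and knockdown lists 7.16 ± 1.49 (SD over 3 lists), a ratio of 3.66 ± 1.25. As a share of the whole list the bins held 0.848, 0.779 and 0.964% in control and 1.94, 1.74 and 1.69% in knockdown, a ratio of 2.07 ± 0.272. The length covered by peaks was 519 ± 106 kb in the knockdown lists, 3.75 ± 1.26 times that in the control lists (SD over 3 lists).

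With lists of equal length the difference was smaller. The bins then held 430, 393 and 498 peaks in control and 792, 757 and 761 in knockdown, a ratio of 1.75 ± 0.216. The lowest knockdown list was still above the highest control list.

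**Figure D1:**
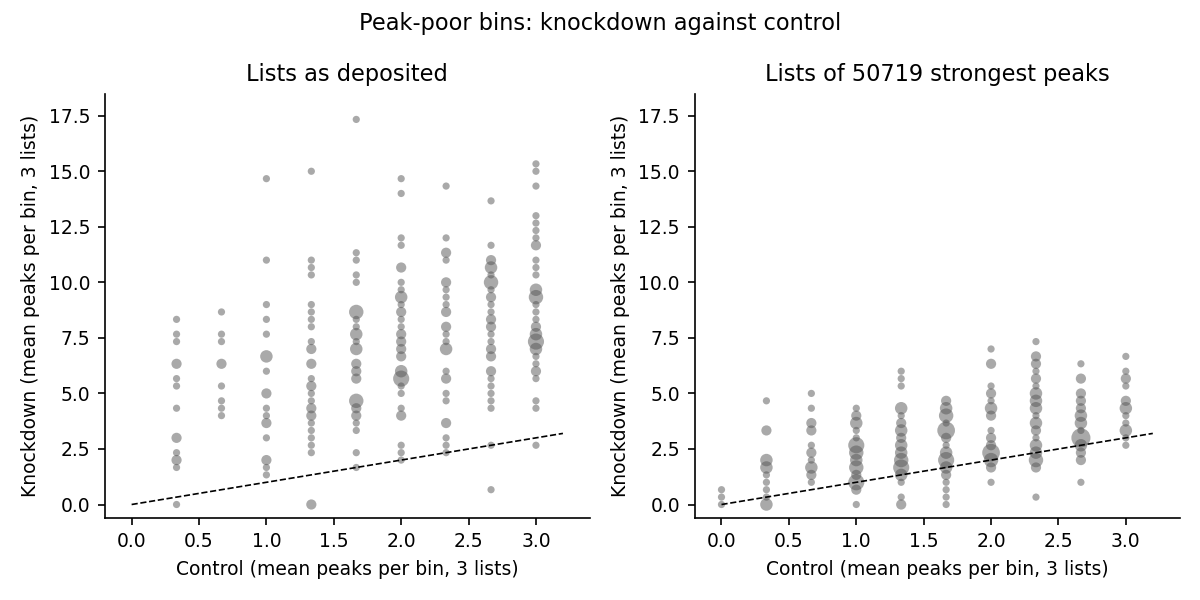
Mean number of peaks per bin in the 3 knockdown lists (vertical axis) against the mean in the 3 control lists (horizontal axis) for the 257 peak-poor bins, as deposited (left) and with lists of equal length (right); larger points stand for more bins with the same values and the dashed line marks equal means. As deposited 248 bins lie above the line, 4 on it and 5 below; with lists of equal length 201 lie above, 24 on it and 32 below.

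The groups were also set side by side within single bins. As deposited, the 3 knockdown counts were all above the 3 control counts in 206 of the 257 bins (80.2%), against 87.5% of all 2732 bins. All 3 were below in 1 bin, against 0.439% of all bins. Under equal length the knockdown counts were all above in 71 bins (27.6%), against 21.7% of all bins, and all below in 2, against 9.03%. Counted as a share of each whole list, they were all above in 62.6% of the peak-poor bins, against 35.1% of all bins, and all below in 5 bins, against 13.2%. These counts rest on the contrast that chose the bins, and nothing is read from their distance to the background.

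A bin chosen for low control counts can be higher in a list that had no part in choosing it. The bins were therefore chosen again on only 2 of the control lists (1 to 6 peaks together), and the remaining control list was set beside the knockdown lists. As deposited, the control list not used held 1.87, 1.85 and 3.36 peaks per bin for replicates 1, 2 and 3, and the knockdown lists averaged 7.32, 7.11 and 8.23 in the same bins. The knockdown lists thus held 3.91, 3.86 and 2.45 times as many peaks as a control list that had no part in the choice, against 2.02, 1.91 and 1.49 times over all autosomal bins.

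Under equal length this comparison gave 2.17, 1.92 and 2.59 peaks per bin in the control list not used and 3.34, 3.26 and 3.62 in knockdown. The ratios were 1.54, 1.70 and 1.40, where all bins together gave 1.00 for each, and all 3 knockdown lists were above the control list in each case. With 1 control list per comparison there is no test. When the bins were chosen on all 6 lists of equal length (2 to 18 peaks together, 211 bins), the ratio in those lists was 1.47. When the rule was turned round and bins were chosen for 1 to 9 peaks in the knockdown lists of equal length (170 bins), the ratio was 0.839, so the direction in such bins depended on which group chose them.

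**Figure D2:**
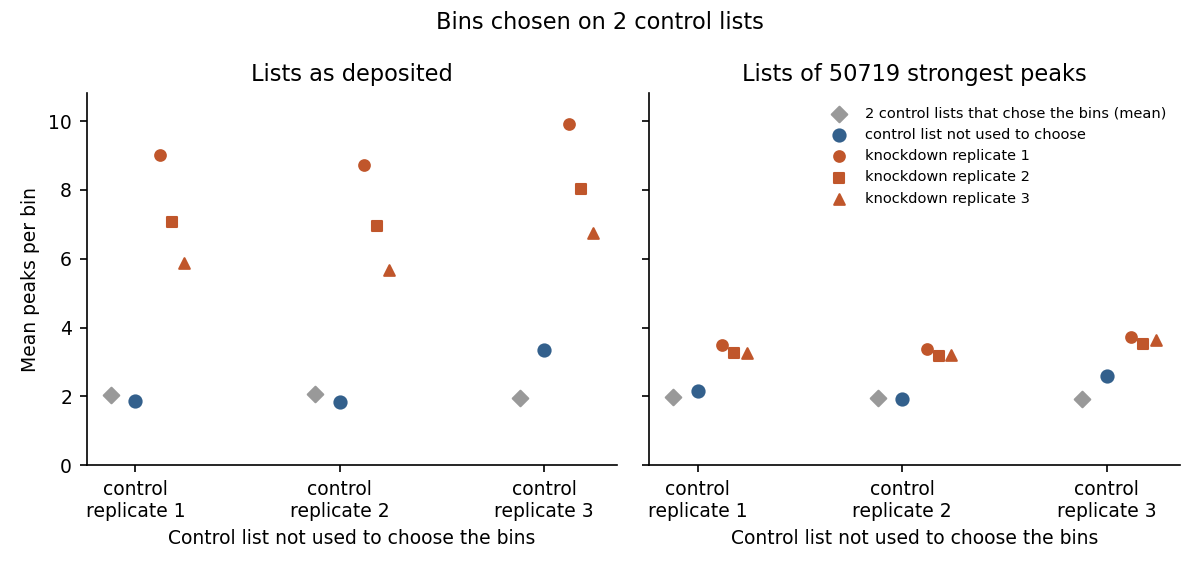
Mean peaks per bin (vertical axis) in bins chosen on 2 control lists, for each control list not used in the choice (horizontal axis), as deposited (left) and with lists of equal length (right). Grey diamonds are the choosing lists, blue circles the control list not used and orange symbols the 3 knockdown lists; with lists of equal length the knockdown lists lie 1.36 to 1.77 times above the control list not used.

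The number of sites added per bin changed less with the control level than the ratio did. In the 15 bins with 1 control peak in all, the knockdown lists averaged 4.36 peaks per bin, 4.02 more than the control lists. In the 43 bins with 9 control peaks they averaged 8.87, which was 5.87 more. Over the same range the ratio went from 13.1 to 2.96. The grouping fixed the control mean, which is the denominator of the ratio, so much of this fall follows from the grouping itself. Just outside the rule, the 43 bins with 10 control peaks averaged 3.33 peaks in control and 10.4 in knockdown, and the 12 bins with 0 control peaks averaged 3.19 in knockdown. The bins just outside the upper threshold therefore had knockdown values near those just inside it.

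**Figure D3:**
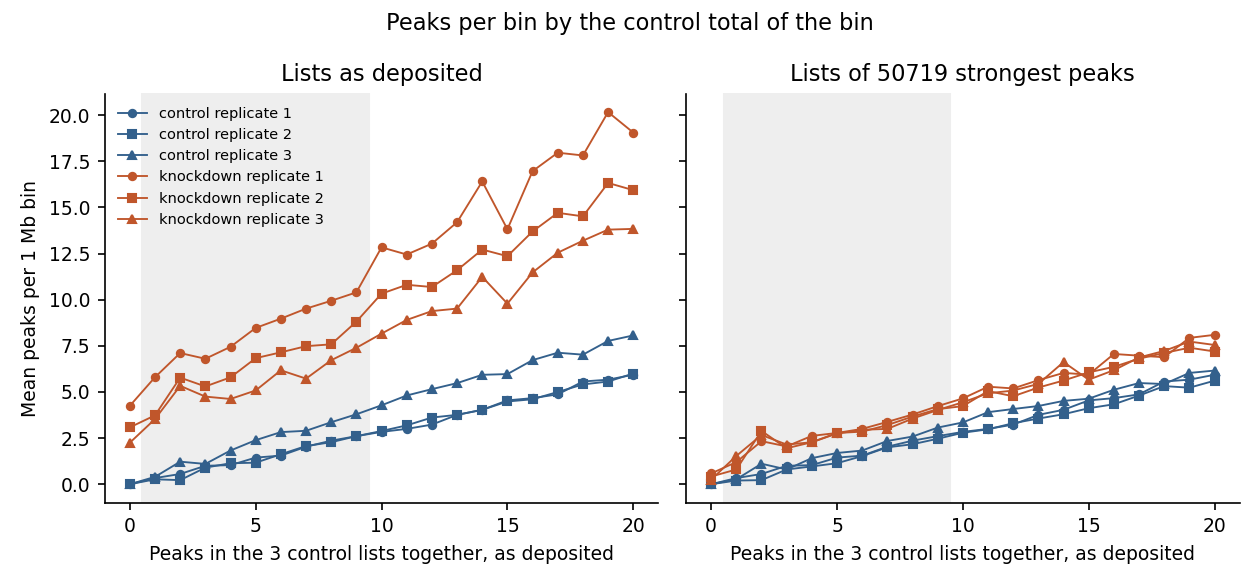
Mean peaks per 1 Mb bin in each list (vertical axis) for autosomal bins grouped by the total of the 3 control lists as deposited (horizontal axis, 0 to 20), as deposited (left) and with lists of equal length (right); the grey band marks the range 1 to 9 that defines the peak-poor bins. Control lists increase by construction, and the knockdown lists lie above them at each total.

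Among single bins, the largest gap between the lowest knockdown and the highest control count was at chr8:31000001-32000000. This bin held 2, 0 and 1 peaks in control and 19, 13 and 12 in knockdown. General knowledge of hg19, used here in place of an annotation, puts the start of NRG1 in it, which encodes neuregulin, a growth factor that signals through ERBB receptors and is needed for ventricular trabeculation. Reduced to equal length, the lists held 2, 0 and 1 peaks in control and 3, 3 and 2 in knockdown, so that the groups touched.

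The bin chr4:27000001-28000000 held 1, 0 and 4 peaks in control and 21, 18 and 13 in knockdown, the highest knockdown mean of any peak-poor bin (17.3 ± 4.04, SD, n = 3). It kept 1, 0 and 1 against 4, 6 and 3 with lists of equal length. No gene of the list used here lies in it, and the 2 bins that follow were peak-poor as well.

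At chr11:104000001-105000000, which holds the inflammatory caspase genes CASP1, CASP4 and CASP5, the control lists had 3, 2 and 4 peaks and the knockdown lists 18, 15 and 13. The groups stayed apart with lists of equal length, at 3, 2 and 3 against 7, 6 and 6. A similar pattern was seen at chr14:87000001-88000000, with 1, 2 and 3 peaks in control and 17, 12 and 13 in knockdown as deposited, and 1, 2 and 3 against 8, 7 and 6 with lists of equal length. No listed gene lies there, and both bins were separate under either list length.

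The other 6 of the 10 bins named by this gap had 0 to 5 peaks in each control list and 8 to 18 in each knockdown list. They were chr3:94000001-95000000, chr2:181000001-182000000 with the ubiquitin-conjugating enzyme gene UBE2E3, chr7:118000001-119000000, chr9:9000001-10000000 inside PTPRD, chr13:54000001-55000000, and chr16:26000001-27000000 with the end of HS3ST4, a heparan sulfate sulfotransferase gene. PTPRD encodes a receptor tyrosine phosphatase that acts in synapse adhesion. The bin on chromosome 3 was 3 Mb or less from the longest peak-free stretch of that chromosome over all 6 lists, and its groups overlapped with lists of equal length (2, 1 and 1 against 5, 7 and 1). Of 6 bins tied at a gap of 7 peaks the first 5 in genome order are named, and chr18:36000001-37000000, with 2, 3 and 2 peaks in control and 14, 10 and 10 in knockdown, was the sixth. The genes CASP1, CASP4, CASP5, UBE2E3 and HS3ST4 were looked up after the values were known.

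With lists of equal length, the largest gaps were at chr5:120000001-121000000 and chr7:118000001-119000000. The first held 2, 0 and 2 peaks in control and 6 in each knockdown list. The second held 1, 1 and 0 in control and 5 in each knockdown list. At chr11:40000001-41000000, inside LRRC4C, a netrin-G ligand gene of excitatory synapses, each control list held 3 peaks and each knockdown list 6. At chr10:56000001-57000000, in PCDH15, a cadherin gene of the hair-cell tip link, each control list held 1 peak and each knockdown list 4. The last bin named here, on chromosome 1, was the first in genome order of 27 tied at a gap of 2 peaks. The remaining bins of this group, beside those on chromosomes 11 and 14 given above, were chr2:184000001-185000000, chr12:73000001-74000000, chr12:74000001-75000000 and chr1:73000001-74000000, with 0 to 3 peaks per control list and 4 to 9 per knockdown list.

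As deposited, few peak-poor bins had fewer sites in knockdown. The 1 bin with every knockdown list below every control list was chr12:37000001-38000000, with 1, 2 and 1 peaks in control and 0 in each knockdown list. Over the 3 lists together, knockdown was below control in 5 bins. Besides that one, these were chr8:47000001-48000000 (8 control peaks, 2 in knockdown), chr11:49000001-50000000 (1 and 0), chr14:107000001-108000000 (4 and 0) and chr19:22000001-23000000 (9 and 8). Except for the bin on chromosome 14, these were 3 Mb or less from the longest peak-free stretch of their chromosome, as were 11 of the 257 bins in all. In those 11 bins the knockdown counts were all above the control counts in 4. With lists of equal length, knockdown was below control over the 3 lists together in 32 of the 257 bins and equal in 24.

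Peak-poor bins often had peak-poor neighbours. Of the 257 bins, 60.3% touched another one, forming 63 runs of 2 bins or more. Bins without such a neighbour held 2.01 ± 0.575 peaks in control and 7.55 ± 1.70 in knockdown, and the 65 bins in runs of 3 or more held 1.88 ± 0.606 and 6.5 ± 1.37 (SD over lists, n = 3 each). As deposited, each of the 6 lists held fewer peaks per bin in these longer runs than in bins without a neighbour. With lists of equal length, control replicate 3 held more in the longer runs (2.015 against 1.794). So did knockdown replicates 1 (2.954 against 2.882) and 3 (2.938 against 2.804). Control replicates 1 and 2 and knockdown replicate 2 still held fewer, and no test of this was made.

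The longest runs were chr5:25000001-31000000 and chr13:81000001-87000000, of 6 bins each. The run on chromosome 5, which includes the cadherin gene CDH9, held 4, 5 and 12 peaks in control and 38, 37 and 29 in knockdown. The run on chromosome 13, with SLITRK1 and SLITRK6, which encode synaptic adhesion proteins, held 9, 5 and 16 in control and 50, 40 and 30 in knockdown. In both runs all 6 bins had the knockdown counts above the control counts. With lists of equal length the run on chromosome 5 held 4, 5 and 8 against 14, 16 and 14, and that on chromosome 13 held 9, 5 and 14 against 26, 17 and 20, so the groups stayed apart as sums over each run.

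The third run behaved otherwise. At chr9:39000001-44000000, which begins with CNTNAP3 (looked up after the values were known), the 5 bins held 8, 7 and 11 peaks in control and 16, 13 and 10 in knockdown. The groups touched in 3 of the 5 bins and overlapped in the other 2. Reduced to equal length, the lists held 8, 5 and 10 against 10, 10 and 8. Its ratio of 1.5 was below the 4.95 and 4.0 of the runs on chromosomes 5 and 13.

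Of the 3 runs of 4 bins, chr1:188000001-192000000 held 4, 5 and 6 peaks in control and 29, 23 and 18 in knockdown, with 3 of 4 bins separate. The run chr11:38000001-42000000, in which LRRC4C lies, held 6, 7 and 11 against 41, 28 and 31, with 4 of 4 bins separate. The third, chr13:54000001-58000000, held 11, 7 and 10 against 37, 28 and 21, with 3 of 4 bins separate, but with lists of equal length its sums overlapped, at 11, 7 and 8 against 12, 15 and 10. The runs on chromosomes 1 and 11 stayed apart as sums with lists of equal length, at 4, 4 and 4 against 7, 9 and 7 and at 6, 6 and 8 against 12, 12 and 14. The run with the highest ratio among those of 3 or more bins was chr4:27000001-30000000, singled out after its values were seen. It held 3, 0 and 7 peaks in control and 41, 31 and 27 in knockdown, and 3, 0 and 1 against 11, 10 and 11 with lists of equal length.

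**Figure D4:**
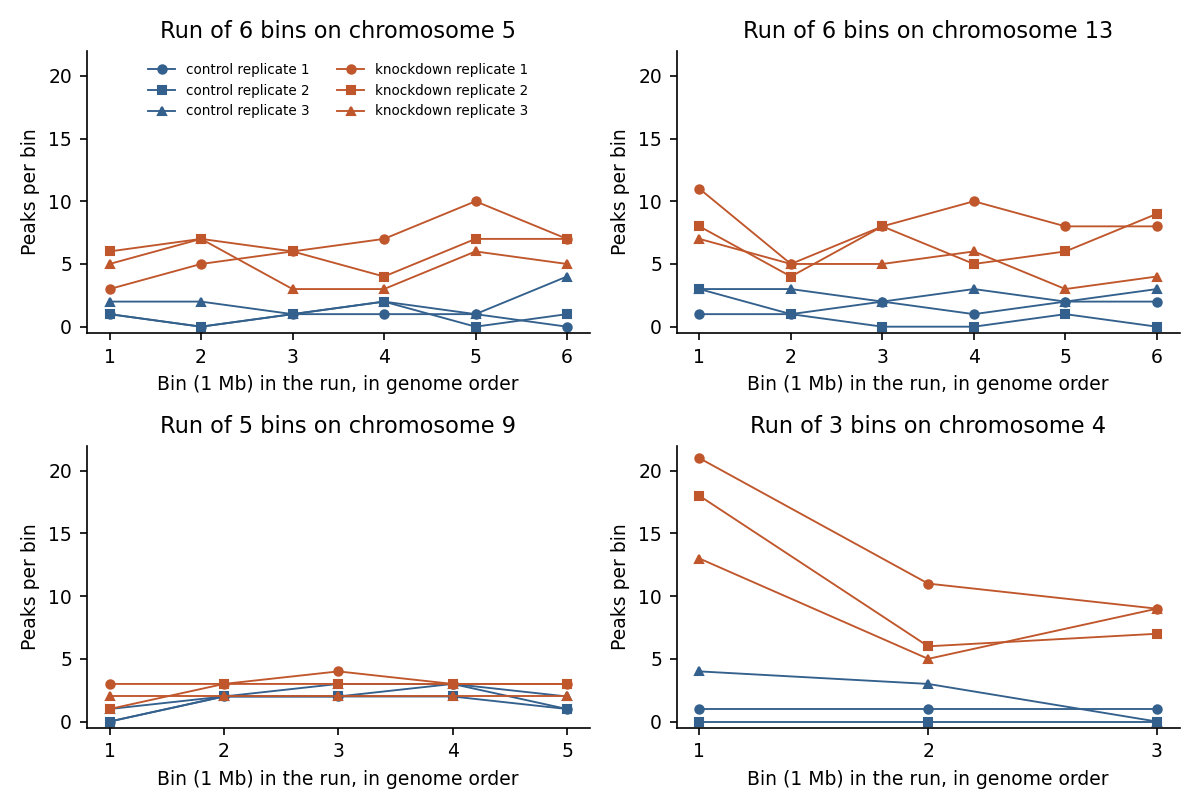
Peaks per 1 Mb bin (vertical axis) in each list along 4 runs of neighbouring peak-poor bins (horizontal axis, bins in genome order), as deposited; blue lines are control and orange lines knockdown lists. In both runs of 6 bins and in the run on chromosome 4 the knockdown lists lie above the control lists in each bin, and on chromosome 9 the lists overlap.

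Long neuronal genes lay in part of these bins. Of a list of 82 long genes of gene-poor regions, drawn up with earlier results of these data known, 36 had at least 1 peak-poor bin, and 15 lay in peak-poor bins alone. By group these were 23 of 46 genes of adhesion, synapse and axon guidance, 5 of 15 receptor and channel genes and 8 of 21 other long genes. They occupied 43 of the 257 bins. In 40 of the 43 the knockdown counts were all above the control counts as deposited, where the share of all bins was 87.5%. With lists of equal length it was so in 14 of the 43, where the share of all bins was 21.7%. The list is not independent of these data, and this is a description.

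The 2 bins of MGAT4C, a gene of the N-glycan acetylglucosaminyltransferase family, held 0, 1 and 1 peaks in control and 17, 15 and 13 in knockdown (0, 1 and 1 against 6, 3 and 5 with lists of equal length). The 2 bins of GRM7, a metabotropic glutamate receptor gene, held 3, 4 and 6 in control and 33, 16 and 19 in knockdown (3, 4 and 5 against 9, 9 and 10). Both genes were apart between the groups under either list length. The bin of PKHD1, which encodes fibrocystin of renal and biliary epithelia, held 0, 1 and 5 against 16, 17 and 11, but 0, 1 and 1 against 2 in each knockdown list with lists of equal length.

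In 3 of the 43 bins the groups were not apart. The peak-poor bin of CNTN3, a contactin gene, held 2, 4 and 3 peaks in control and 7, 8 and 4 in knockdown, so that the groups touched. Reduced to equal length, the lists held 2, 4 and 2 peaks there in control and 1, 2 and 3 in knockdown. Another of these bins was chr11:98000001-99000000, the first of CNTN5, also a contactin gene, with 2, 3 and 4 against 6, 3 and 5, where the groups overlapped.

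The sites themselves were narrower in peak-poor bins than elsewhere. Their median width was 216, 214.5 and 213 bp in control replicates 1, 2 and 3 and 224, 219 and 228 bp in the knockdown replicates. In the other autosomal bins it was 291, 280 and 271 bp in control and 297, 292 and 308 bp in knockdown. Peaks in peak-poor bins were thus narrower in 6 of 6 libraries, with a difference of -70.8 ± 7.80 bp (SD, n = 6; exact paired permutation test, two-sided, p = 0.031, the smallest possible with 6 pairs). The size of this difference depended on which peaks were kept: it was -123.2 bp with lists of equal length and -169.3 bp in the stronger 50% of each list (same exact permutation test, p = 0.031 in both). Peaks over 500 bp made up 8.48 ± 0.461% in peak-poor bins and 25.3 ± 1.24% elsewhere (SD, n = 6; exact paired permutation test, two-sided, p = 0.031).

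Within the peak-poor bins, knockdown peaks were wider than control peaks by 9.17 bp in the median, with no overlap of the groups (exact permutation test, two-sided, n = 3 each, p = 0.1, the smallest possible). The same difference was 81.3 bp with lists of equal length and 26.3 bp in the stronger 50% of each list (exact permutation test, p = 0.1 in both). Cutting to equal length kept 100, 94.0 and 75.6% of the peaks in these bins in control replicates 1, 2 and 3. In knockdown replicates 1, 2 and 3 it kept 35.2, 42.5 and 51.2%. Stronger peaks were wider, so the cut alone can widen the knockdown median, and its part in the 81.3 bp was not tested. As deposited, knockdown peaks elsewhere were wider than control peaks by 18.3 bp (same exact permutation test, p = 0.1). The difference of peak-poor from other bins was -75.3 ± 4.04 bp in knockdown and -66.2 ± 8.52 bp in control (SD over 3 libraries), and these differed with p = 0.3 (two-sided exact permutation test).

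Sites in peak-poor bins also ranked lower by score within their own list. Their median score percentile was 41.4, 45.3 and 45.6 in control and 44.3, 45.7 and 42.3 in knockdown, against 51.9, 51.9 and 51 and 48.4, 49.3 and 50.9 elsewhere. It was lower in 6 of 6 libraries, with a difference of -6.46 ± 2.68 percentile points (SD, n = 6; exact paired permutation test, two-sided, p = 0.031). With the bin edges shifted by 0.5 Mb the difference was -6.25 points and the p of the same exact permutation test 0.0625. It was -12.2 points with lists of equal length and -13.4 points in the stronger 50% of each list (exact permutation test, p = 0.031 in both). A rule of 1 to 15 control peaks gave -4.80 points and a p of 0.0625 in the same exact permutation test. Within peak-poor bins the median percentile was 44.1 ± 2.36 over the control libraries and 44.1 ± 1.70 over the knockdown libraries (SD; two-sided exact permutation test, p = 1). The knockdown value was lower by a difference of -5.66 points with lists of equal length and of -3.09 points in the stronger 50% of each list (exact permutation test, p = 0.1 in both, the smallest possible). Scores are whole numbers with many ties, so median percentiles move in steps.

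Strong sites were rare in these bins but present. Of the peaks in peak-poor bins, 3.69 ± 0.672% were among the top 10% of their list, against 10.0 ± 0.209% elsewhere (SD, n = 6). Reducing the knockdown lists to equal length kept 35.2, 42.5 and 51.2% of their peaks in peak-poor bins and 44.0, 49.6 and 57.8% of those elsewhere.

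Stronger peaks were wider, so widths were also set side by side within quintiles of each list's score. In the lowest quintile, knockdown peaks had a median of 176.5 bp in peak-poor bins and 184 bp elsewhere (means over 3 lists). In the highest quintile the medians were 445 and 752 bp, and the difference ran from 289 to 322 bp over the 3 lists. Control lists gave 424 and 731 bp in the highest quintile. Peaks of the highest quintile were thus narrower in peak-poor bins than elsewhere in all 6 lists. Ranks within the quintile were not matched, and a smaller share of the peaks in peak-poor bins was in the top 10% of their list.

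**Figure D5:**
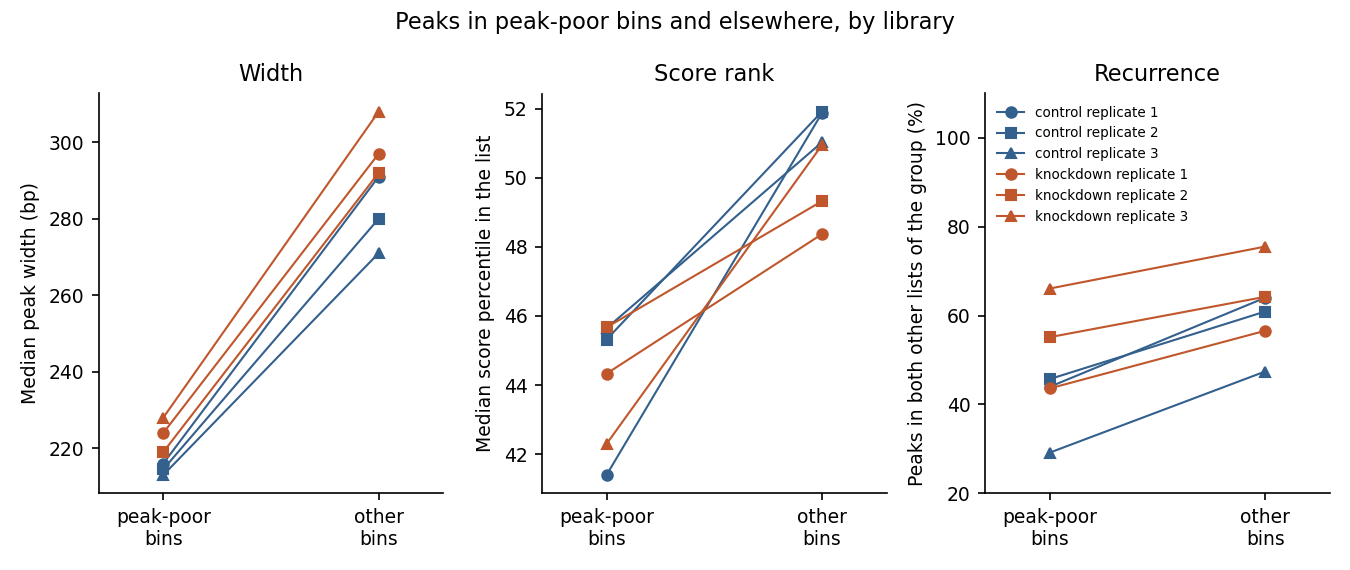
Median peak width in bp (left), median score percentile within the list (middle) and share of a list's peaks that overlap a peak in both other lists of the same group (right), in peak-poor and in other bins; each line is 1 library, blue for control and orange for knockdown, and the vertical axes do not start at 0. All 6 lines lie lower in peak-poor bins in each of the 3 panels.

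Recurrence between libraries of a group was lower in peak-poor bins in each list. In knockdown, 43.6, 55.1 and 66.1% of the peaks in peak-poor bins overlapped a peak in both other knockdown lists (replicates 1, 2 and 3), against 56.6, 64.2 and 75.5% elsewhere. In control the values were 44.0, 45.7 and 29.1% against 64, 60.9 and 47.4%. The rule bears on the control values, since a bin with 1 or 2 control peaks can hold none shared by 3 control lists. No test of them is therefore given. Over the knockdown lists, which had no part in the rule, the difference was -10.5 ± 2.15 percentage points (SD, n = 3; exact paired permutation test, two-sided, p = 0.25, the smallest possible).

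Recurrence followed the score. In the highest quintile of scores, 99.1% of knockdown peaks in peak-poor bins were found in both other knockdown lists and 99.7% of those elsewhere (means over 3 lists). In the lowest quintile it was 17.7 and 20.7%. In quintiles 2, 3 and 4 the knockdown difference of peak-poor from other bins was larger, at -7.95, -8.14 and -6.29 points, and negative in all 3 lists. The strong sites called in peak-poor bins in 1 knockdown library were thus nearly all called in the other two.

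Sites called in all 3 control lists were seldom lost in these bins. Sites called in fewer control lists are not covered by the values that follow. Overlapping peaks of the 6 lists (1 bp or more) were joined into single regions, of which 3030 lay in peak-poor bins. Of 187 regions called in all 3 control lists there, 177 (94.7%) were called in all 3 knockdown lists, against 95.4% of 29037 regions elsewhere. Each knockdown list called 97.3 ± 1.85% of such regions in peak-poor bins and 97.6 ± 1.13% elsewhere (SD, n = 3; exact paired permutation test, two-sided, p = 0.75; difference between -2.26 and 1.43 points over the 3 lists). Under equal length these were 92.4 ± 1.44 and 92.4 ± 0.561% (exact paired permutation test, two-sided, n = 3, p = 1).

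Regions called in all 3 knockdown lists and in no control list numbered 405 in peak-poor bins, 13.4% of the regions there, against 7.61% of 150132 regions elsewhere. Those called in all 3 control lists and in no knockdown list numbered 1 (0.033%), against 196 elsewhere (0.131%). In lists of equal length, regions called only in knockdown numbered 114, 8.57% of 1330 regions in peak-poor bins, against 2.9965% of 81729 elsewhere. Regions called only in control then numbered 8 (0.6015%), against 1056 elsewhere (1.29%). Without knockdown replicate 3 there were 744 regions called in both other knockdown lists and in no control list, and without control replicate 3 the regions called only in control numbered 14. The absence of control calls is tied to how the bins were chosen, so these shares are a description.

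The 405 knockdown-only regions were spread over 193 of the 257 bins, with at most 7 in a bin. Their median width was 313 bp, against 616 bp for the 177 regions called in all 6 lists in the same bins. The median over regions of the lowest score percentile in the 3 knockdown lists was 31.9 for the knockdown-only regions in peak-poor bins and 26.4 for those elsewhere. They lay a median of 77.3 kb from the nearest control peak (25th to 75th percentile 24.9 to 157 kb), against 8.48 kb elsewhere, a distance tied to the rule that chose the bins.

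Among the knockdown-only regions with the highest lowest percentile was chr4:97445492-97445978, of 487 bp, with percentiles of 81.2, 82.3 and 82 in the 3 knockdown lists. Another, chr1:72644007-72644295, of 289 bp, at 80.4, 82.3 and 85.3, lies in the bin of NEGR1, a neuronal adhesion gene looked up after the values were known. Both regions were called in 3 knockdown lists and 0 control lists with lists of equal length as well.

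Next in that order were the 7 regions chr13:69773873-69774118, chr2:41618150-41618437, chr5:84181362-84182012, chr7:118836100-118836768, chr4:131744310-131744519, chr5:22560359-22560571 in the bin of CDH12, and chr16:13187554-13187971 in the bin of SHISA9 (looked up afterwards), a gene of an AMPA receptor auxiliary protein. They were 210 to 669 bp wide, and their lowest percentiles ran from 76.2 to 73.2. In each, the peaks of all 3 knockdown lists were kept in the lists of equal length. The bin of the region on chromosome 7 is also among those with the largest gaps between the groups. The 1 control-only region was chr8:34764492-34764941, with percentiles of 68.8, 45.3 and 14.9 in the control lists.

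Peak-poor bins were unevenly spread over the chromosomes. They made up 20.6% of the bins of chromosome 13 (20 of 97), 17.4% of chromosome 4 (33 of 190), 15.6% of chromosome 5 (28 of 179) and 15.6% of chromosome 18 (12 of 77). Chromosomes 17, 19 and 20 had 1 each and chromosome 22 had 0. On chromosome 13 the peak-poor bins held 116 control and 417 knockdown peaks, a ratio of 3.59, and on chromosome 4 they held 195 and 724, a ratio of 3.71. Among chromosomes with at least 5 such bins the ratio ran from 2.90 on chromosome 21 to 5.04 on chromosome 10. The single bin of chromosome 19, which lies in a cluster of zinc finger genes, had a ratio of 0.889.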

How the data were processed

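ATAC-seq peak lists of 6 libraries (3 per group, day 15) were used. The deposited files give position, peak name and a score per peak; Bowtie2 2.4.5, bedtools 2.30.0 and build hg19 are named, without role or order, per the submitters' processing notes. Peak names begin with MACS and carry 1 library. The caller's version, threshold, Tn5 shift and duplicate handling were not given in the sources used here, and depth is unknown. Scores served only to rank peaks within a list.

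Peaks were assigned to 1 Mb bins by midpoint and joined into regions by overlap of at least 1 bp (Python 3.11.15, pandas 2.3.3, numpy 2.4.6, matplotlib 3.10.9). The last bin of a chromosome can span less than 1 Mb of sequence, and counts were not corrected for this. Width, percentile and recurrence were compared by exact permutation over libraries. The code was tested on simulated lists of 300 bins and passed 9 of 9 checks. Members and lists were chosen with earlier results of these data known. Named bins are the 10 with the largest gap between groups under each list length and those lower in every knockdown list, ties taken in genome order; named runs are the 5 longest; named regions are the 10 with the highest lowest percentile. Of these and of the listed genes' bins, some are not reported here. Gene positions come from general knowledge of hg19, not an annotation: 82 listed genes, and 11 looked up after values were seen. Alternatives covered list length, score, rule, bin size and edges, peak assignment, choice of bins, libraries and pairing.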

Additional observations from a re-analysis of the deposited data

Results flagged for a closer look

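On chromosome X, which the rule leaves out, 41 of 152 bins held 1 to 9 control peaks. They held 59, 80 and 96 peaks in control replicates 1, 2 and 3 and 292, 225 and 176 in the knockdown replicates, a ratio of 2.949 ± 1.02 (SD). Reduced to equal length, the lists held 59, 69 and 66 against 82, 84 and 77, a ratio of 1.253 ± 0.114. The signal stood above the control lists in bins outside the main measurement, but the control counts chose the bins and no test was made.

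The 12 autosomal bins with 0 control peaks held 38.33 ± 12.06 peaks per knockdown list (SD, n = 3), and 10 of the 12 (83.3%) had a peak in each knockdown list. Without control peaks this is the same as all 3 knockdown counts above control, which held in 87.5% of all 2732 bins. The bin chr16:61000001-62000000, where the cadherin gene CDH8 lies, held 8, 7 and 3 peaks in the knockdown replicates, and chr4:98000001-99000000, in STPG2, held 7, 6 and 3. Reduced to equal length, the knockdown lists held 5 ± 2 peaks in the 12 bins. These bins were chosen for having no control peak, and depth is unknown.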

How the results depend on the processing

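Of 229 values under alternatives, 143 were graded the same, 65 moved, 14 weaker and 7 reversed in direction. A count was graded the same within a fixed factor of the main count, and a ratio within the SD of the main ratio. A tested difference was graded the same when it kept its direction and its side of a permutation threshold of 0.05. Weaker differences kept their direction but rose above that threshold. Knockdown minus control and the recurrence difference cannot reach that threshold (smallest exact permutation p 0.1 and 0.25), so only their direction was graded. With 1 library left out, width and percentile differences from other bins could not be graded the same. These grades were therefore partly fixed in advance. Differences graded the same could still change in size, and the cause of these changes was not tested. With lists of equal length and in the stronger 50% of each list, the width difference from other bins was -123.2 and -169.3 bp, the percentile difference from other bins -12.18 and -13.4, and knockdown minus control 81.33 and 26.33 bp in width and -5.658 and -3.087 in percentile. A rule of 1 to 6 control peaks and 2 Mb bins gave -11.48 and -11.44 for the percentile difference from other bins and 15.83 and 22.33 bp for width, knockdown minus control. In lists of equal length, with the bins kept, the ratio of peaks and of list shares was 1.749, bins with all knockdown lists above or below control numbered 71 and 2, and knockdown-only and control-only regions 114 and 8. With the bins chosen again in those lists, these were 1.706, and 90 and 3 bins. The stronger 50% of each list gave 0 bins below and 201 knockdown-only regions. A rule of 1 to 6 control peaks gave 149 bins, a share ratio of 2.573, 119 bins above, a percentile difference of knockdown from control of 4.283, reversed in sign, and 234 knockdown-only regions. A rule of 1 to 15 gave 455 bins, 1.77, 374 above, 3 below, a percentile difference from other bins of -4.805, 847 knockdown-only and 5 control-only regions, and 254 runs of up to 10 bins. Bins of 0.5 Mb gave 1283 bins, 1.787, 867 above and 3 below. Bins of 2 Mb gave 28 bins, 2.641, 24 above and a percentile difference of knockdown from control of 3.453, reversed in sign. Shifted edges gave 0 bins below and -6.249 for the percentile difference from other bins; leaving out bins near peak-free stretches also gave 0 below. Chosen on 2 control lists, with control replicate 1, 2 or 3 compared, 5, 6 and 3 bins were below, and replicate 3 gave a share ratio of 1.63. Choosing on all 6 lists of equal length gave 4 below. Counting regions found in 2 of 3 lists gave 958 knockdown-only and 17 control-only regions. For 1 Mb bins and all 6 lists, 87.5% of all bins were above and 0.439% below as deposited. With lists of equal length these shares were 21.7 and 9.03%. Shares over all bins are not given for bins of 0.5 or 2 Mb.

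Further alternatives, chosen after seeing the data, used lists of equal length for both choice and counting. Choosing on 2 control lists gave ratios of peaks and shares of 1.544, 1.704 and 1.4 for control replicates 1, 2 and 3. Bins below numbered 24 of 303, 21 of 294 and 10 of 326, and their share over all bins is not given. For replicate 3, 125 of the 326 bins were above (38.3%), against 35.1% of all bins. Choosing on all 6 lists gave 1.47, with 37 of 211 bins above and 5 below. Choosing on the knockdown lists gave 170 bins and reversed the ratio to 0.8388, with 12 above and 11 below. With all 6 lists of equal length, 21.7% of all bins were above and 9.03% below.

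Leaving out 1 library at a time gave ratios of peaks of 3.254 to 4.337, share ratios of 1.976 to 2.201, 206 to 224 bins above and 1 to 2 below. It gave width differences from other bins of -73.3 to -68.9 bp and percentile differences of -7.027 to -5.663, where the smallest possible exact permutation p becomes 0.0625. Knockdown minus control ran from 7 to 11.5 bp in width and from -1.383 to 0.8803 in percentile, so the latter changed sign. The recurrence difference ran from -10.5 to -6.946 points, knockdown-only regions from 431 to 744 (without knockdown replicate 3) and control-only regions from 1 to 14 (without control replicate 3).

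Replicate numbers are shared between the groups in the labels, and correlations between same-numbered libraries were positive but weak (0.037, 0.126 and 0.092 over 2708 bins). Each control library correlated best with its own number, and 2 of 3 knockdown libraries did. With the replicate number as a block the ratio of peaks was 3.691, the share ratio 2.078, and 219 bins were above and 2 below.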
